A study of Mus musculus with 6 samples.

Results

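The Toll-like receptor genes of mouse bone marrow-derived macrophages (BMDM) are described here, the 10 rows of the deposited expression table whose gene symbol is Tlr1 to Tlr9 or Tlr13, out of 16978 genes in the table. The rule is the family name and uses no measured value, although the family was picked with earlier results of these data known. All 10 had enough counts to be tested. BMDM were grown from the femoral marrow of wild type C57BL/6 mice for 7 days in 25 ng/ml M-CSF, the growth factor that drives macrophage differentiation. They were then given 200 ng/ml IL17B, or PBS as the control, for 6 hours, and no bacterial ligand is named for these samples. Each treatment had 3 samples, and each sample gave 1 bulk RNAseq library of 50-base single-end reads. The methods of the study describe its purchased C57BL/6 mice as female and 6 to 8 weeks old. No source used here says whether the 3 samples of a treatment were separate cultures or mice, so the p-values reflect no more than the spread of these samples, and that spread may be technical.

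Toll-like receptors are membrane proteins that detect molecules of microbes and start the NF-kB and interferon responses of macrophages. Their outer part, a horseshoe of leucine-rich repeats, binds the ligand, and their inner TIR domain recruits the adaptors Myd88 or Ticam1 (TRIF). Tlr1, Tlr2, Tlr4, Tlr5 and Tlr6 sit mainly at the cell surface and bind lipids, lipopolysaccharide (LPS) or protein of bacteria. Tlr3, Tlr7, Tlr8, Tlr9 and Tlr13 sit in endosomes and bind nucleic acids. The study tested IL17B as an inhibitor of LPS responses, and the libraries show what the receptors themselves looked like in cells that had IL17B alone.

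Estimated counts summed to between 20271450 and 20653371 per library. The 9 macrophage markers checked, Csf1r, Adgre1 and Cd68 among them, were all detected and summed to 27927 to 29222 CPM (the count scaled by library total and TMM factor) with PBS and 28532 to 30146 CPM with IL17B. Markers of other cells that use these receptors were low. The 5 markers of plasmacytoid dendritic cells summed to at most 1.94 CPM in any library and the 5 matched neutrophil markers to at most 1.08 CPM. Neither group had a marker with a mean of 1 CPM or more. Conventional dendritic cell markers summed to 1.75 to 2.84 CPM with PBS and 2.39 to 2.65 CPM with IL17B, and those of T and NK cells to at most 1.96 CPM in any library. Hepatocyte markers stood apart, since all 7 summed to at most 0.489 CPM in IL17B replicate 1 and every PBS library, but to 194 and 67.9 CPM in IL17B replicates 2 and 3. Fibroblast markers were at 32.4 to 47.1 CPM with PBS and 27.8 to 30.5 CPM with IL17B, without overlap. The part of these markers in the receptor values was not tested, and in bulk samples fewer cells of a type and less RNA per cell cannot be told apart. Results without IL17B replicates 2 and 3 are given below beside the receptors.

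Levels of different genes were compared in TPM, which the authors scaled by gene length. The most abundant receptor was Tlr13, at 249 to 289 TPM over the 6 libraries. Tlr8 followed at 177 to 207 TPM, Tlr2 at 173 to 187 TPM and Tlr7 at 92.2 to 119 TPM. A middle group held Tlr1 at 50.5 to 55.2 TPM, Tlr9 at 40.5 to 48.1 TPM and Tlr4 at 37.1 to 43.8 TPM. The lowest were Tlr6 at 18.1 to 23.5 TPM, Tlr3 at 13.6 to 17.0 TPM and Tlr5 at 2.89 to 4.54 TPM. By mean TPM, Tlr13 ranked at place 499 and Tlr5 at place 9856 of all 16978 genes.

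**Figure D1:**
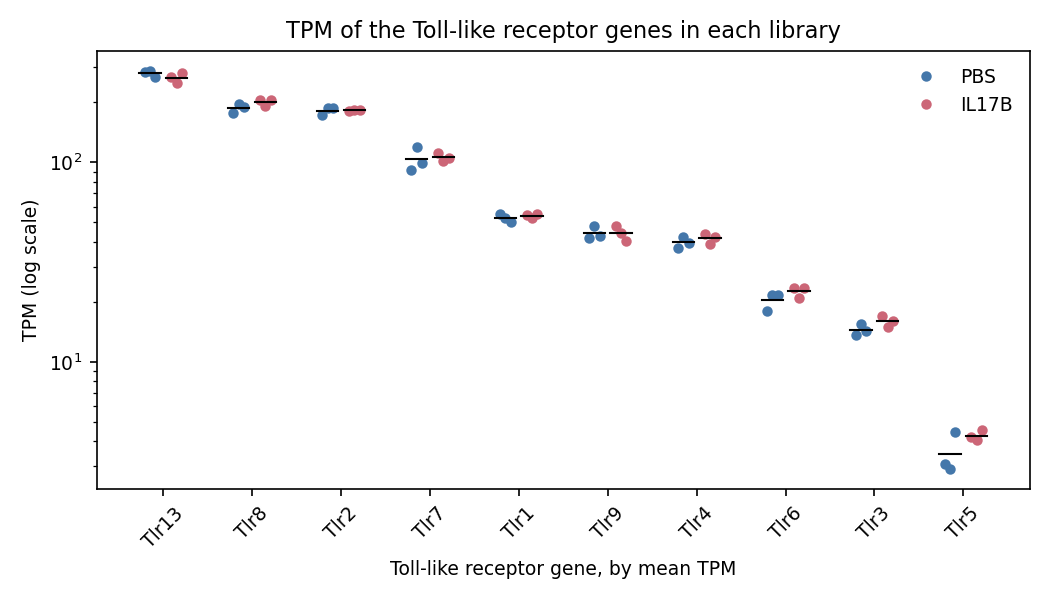
TPM of each Toll-like receptor gene in each library, on a log scale, ordered by mean TPM, with PBS libraries in blue, IL17B libraries in red and black lines at the mean of 3 libraries. Tlr13 sits highest, at 249 to 289 TPM, Tlr5 lowest, at 2.89 to 4.54 TPM, and the points of both treatments overlap for each gene.

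Most steps in this order were larger than the spread between libraries. That spread does not cover error in the gene lengths behind TPM, which was not tested. By mean CPM, which is not scaled by length, Tlr4 was at 157, Tlr9 at 74.4 and Tlr1 at 74.4, though Tlr4 was lowest of them by mean TPM. The ranges of neighbours did not overlap, except for 2 pairs, Tlr8 with Tlr2 and Tlr9 with Tlr4. Tlr8 was above Tlr2 in all 6 libraries, but only by 1.02 to 1.14 times, and Tlr9 was above Tlr4 in 5 of 6 libraries. Together the 10 receptors came to 929 ± 40.6 TPM with PBS and 938 ± 32.4 TPM with IL17B (SD, n = 3 each). The 5 endosomal receptors took 66.7% to 68.6% of that sum in the 6 libraries. Tlr7, Tlr8 and Tlr13, whose genes all lie on chromosome X, took 60.2% to 62.1%.

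No receptor was called as changed by IL17B. At an adjusted p of at most 0.05, edgeR called 0 of the 10, and 0.0% of the 13866 genes tested. Without adjustment, 0 of 10 receptors had p under 0.05 in edgeR, where 5.24% of all genes tested did, 2.96% with a higher level after IL17B. The smallest adjusted p of a receptor in edgeR was 0.941. DESeq2 and limma-voom called 0 of 10 as well, and over all genes DESeq2 called 6 and limma-voom 0. At an unadjusted p under 0.05, DESeq2 had 1 of 10 receptors beside 2.25% of all genes tested, and limma-voom 2 of 10 beside 4.23%. The log2 fold change, IL17B over PBS, was above 0 for 9 receptors and below 0 for Tlr13, beside 50.1% of all genes tested above 0. Among the 9, it was only 0.0006 for Tlr2 and 0.0041 for Tlr9. Without PBS replicate 1 it fell below 0 for Tlr2 (-0.024), Tlr7 (-0.032) and Tlr9 (-0.020). The median in the main fit was 0.05, against 0.00 over all genes tested. The median size of the change, without its sign, was 0.07 for the receptors and 0.07 for all genes tested.

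**Figure D2:**
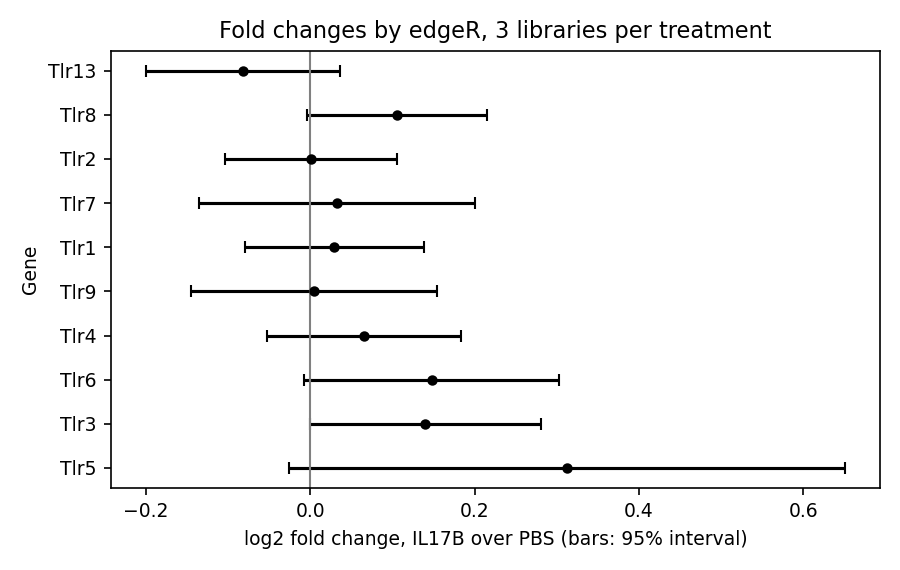
Log2 fold change of each Toll-like receptor gene, IL17B over PBS, from edgeR, with 95% intervals. The intervals of all 10 genes include 0, and the widest is that of Tlr5, from -0.03 to 0.65.

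The 95% intervals of the fold change reflect only the spread of these samples, which may be technical, and set no limit for other cultures. For 9 of the 10 receptors they lay between -12.9% and 23.4%. The exception was Tlr5, the receptor with the fewest counts, whose interval ran from -1.77% to 57.0%. The groups overlapped in CPM for 9 receptors. Only Tlr8 had its 3 IL17B libraries on 1 side of the 3 PBS libraries, which is 1 of 10 against 9.92% of all genes tested and 9.35% of those with a mean of at least 5 CPM. This receptor was higher with IL17B, as were 5.16% of all genes, and 0 of 10 were lower without overlap, against 4.77%. In TPM the receptors without overlap were 0 of 10, against 8.94% of all genes tested.

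Among the surface receptors, Tlr4 is the receptor of LPS, which it binds with its partner Ly96 (MD-2) after transfer from Cd14. Tlr4 (gene ID 21898, chromosome 4 of GRCm38.p6 from 66827551 to 66846581) was at 145, 161 and 152 CPM in PBS replicates 1, 2 and 3 and at 166, 153 and 162 CPM in IL17B replicates 1, 2 and 3. The groups overlapped, with PBS replicate 1 lowest. The fitted log2 fold change was 0.07 (edgeR, SE 0.05, adjusted p = 0.983), with an interval from -3.56% to 13.6%. Cd14 was far more abundant per length than Tlr4, with a mean of 1254 TPM against 40.7 TPM. Cd14 averaged 1009 ± 119 CPM with PBS against 989.9 ± 41.9 CPM with IL17B (SD, n = 3 each). Ly96 lies outside the rule for naming genes and was added after its values were seen. Its 3 PBS libraries held 313, 317 and 324 counts, and its 3 IL17B libraries held 313, 354 and 346, so that the groups overlapped.

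Tlr2 pairs with Tlr1 to bind triacylated lipopeptides and with Tlr6 to bind diacylated ones. Tlr2 (gene ID 24088, chromosome 3 from 83836272 to 83841824) was at 242, 254 and 258 CPM with PBS and at 245, 259 and 252 CPM with IL17B. The groups overlapped, and its fold change was the closest to 0 of the 10, at log2 0.00 (edgeR, SE 0.05, adjusted p = 1.00) and an interval from -6.93% to 7.54%. Its partners were less abundant per length. The TPM of Tlr1 was 0.271 to 0.320 times that of Tlr2, and the TPM of Tlr6 was 0.105 to 0.130 times that of Tlr2, over the 6 libraries.

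Tlr1 and Tlr6 are neighbours on chromosome 5, 19491 bases apart on the minus strand, and their counts are less certain than those of the other members because their coding sequences are alike. Of the 50-base windows in the coding transcripts of each gene in GENCODE release M21, 14.8% of those of Tlr1 and 12.3% of those of Tlr6 also occur in the other gene. For Tlr4 there was 1 shared window of 5417, with the olfactory receptor gene Olfr804. The other 7 receptors had 0 windows shared with any other coding gene. Coding sequences of Tlr1 (2388 bases) and Tlr6 (2421 bases) were identical at 74.8% of 2365 aligned bases. The longest identical run had 229 bases, and 6 runs were at least as long as a read.

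The genes differ most in the outer, ligand-binding part. The following 150 aligned coding bases are those where the genes are least alike, with 79 differences, and bases that differ are in capitals. They lie at chr5:64926269-64926418 for Tlr1 and chr5:64954560-64954709 for Tlr6 (GRCm38, minus strand, bases 815 to 964 and 854 to 1003 of the coding sequence).
Tlr1: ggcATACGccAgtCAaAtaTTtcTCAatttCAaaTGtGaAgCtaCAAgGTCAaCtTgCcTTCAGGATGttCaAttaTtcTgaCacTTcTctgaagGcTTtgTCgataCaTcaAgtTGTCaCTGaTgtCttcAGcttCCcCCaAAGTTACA
Tlr6: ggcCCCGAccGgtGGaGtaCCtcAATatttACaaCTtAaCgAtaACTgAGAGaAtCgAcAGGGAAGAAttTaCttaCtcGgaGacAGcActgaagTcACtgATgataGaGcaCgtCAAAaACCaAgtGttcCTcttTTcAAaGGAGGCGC
No 50 bases in a row are identical here. Further on, the sequences run together. In another 150 aligned bases, chosen where identity rises most from the first to the last part, 34 bases differ, again in capitals, and all but 1 of them come before a long identical stretch. They lie at chr5:64925865-64926014 for Tlr1 and chr5:64954156-64954305 for Tlr6 (bases 1219 to 1368 and 1258 to 1407 of the coding sequence).
Tlr1: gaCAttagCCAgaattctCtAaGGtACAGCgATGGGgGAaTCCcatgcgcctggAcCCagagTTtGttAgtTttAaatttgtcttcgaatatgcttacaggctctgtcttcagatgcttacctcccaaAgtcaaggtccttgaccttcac
Tlr6: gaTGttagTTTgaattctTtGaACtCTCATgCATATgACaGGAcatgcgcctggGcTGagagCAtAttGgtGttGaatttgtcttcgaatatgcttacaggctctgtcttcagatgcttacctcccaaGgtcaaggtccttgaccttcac
From aligned base 1401 to 2200 the genes were identical at 97.0% to 99.5% of bases per window of 200, and over the last 165 aligned bases at 68.5%.

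**Figure D3:**
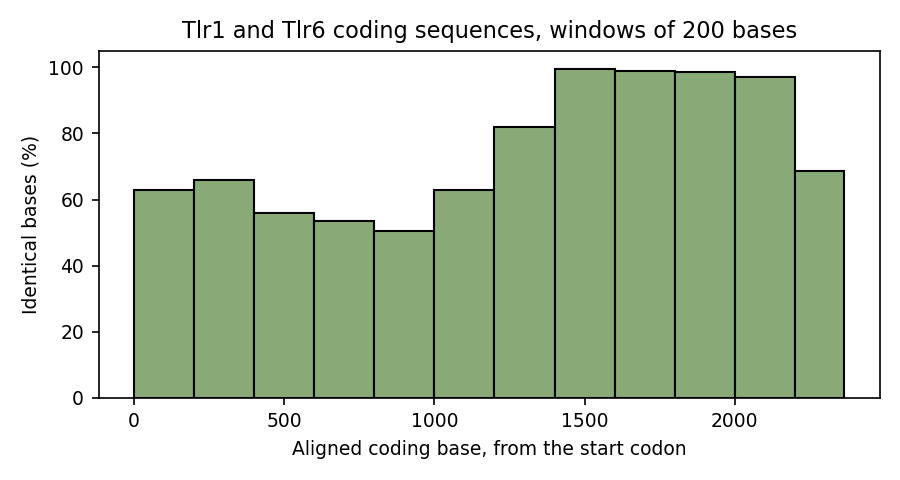
Identity of the Tlr1 and Tlr6 coding sequences in windows of 200 aligned bases, counted from the start codon, the last window holding 165 bases. Identity is lowest at 50.5% in the window from base 801 and at least 97.0% in the 4 windows from base 1401 to 2200.

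RSEM divides reads that match several genes between them, which gives counts that are not whole. Tlr1 and Tlr6 were the only members with counts that were not whole numbers, in 5 and 6 of the 6 libraries (by more than 0.005). Over all genes 41.6% had such a count in at least 1 library. Tlr1 (gene ID 21897, chromosome 5 from 64924680 to 64933600) received 1601.49, 1505.05 and 1430.00 counts after PBS and 1533.22, 1538.77 and 1538.87 after IL17B. Tlr6 (gene ID 21899, from 64953092 to 64970942) received 578.29, 639.45 and 673.28 after PBS and 695.64, 670.20 and 720.16 after IL17B. In PBS replicate 1, Tlr1 had its highest and Tlr6 its lowest count of the 6 libraries. The ratio of their TPM was 3.05 in that library and 2.32 to 2.51 in the other 5.

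Tlr1 averaged 73.6 ± 3.94 CPM after PBS against 75.1 ± 0.0888 CPM after IL17B (SD, n = 3 each), and its log2 change was 0.03 (edgeR, SE 0.05, adjusted p = 0.99). Tlr6 was at 30.7 ± 2.44 CPM and 34.0 ± 1.19 CPM, a log2 fold change of 0.15 (edgeR, SE 0.07, unadjusted p = 0.0605, adjusted p = 0.958). The intervals ran from -5.40% to 10.1% for Tlr1 and from -0.547% to 23.4% for Tlr6. Both genes overlapped between treatments. Their sum, which does not depend on how reads were divided between them, was at 106, 104 and 103 CPM with PBS and at 109, 108 and 110.1 CPM with IL17B. The IL17B libraries were all above the PBS libraries. The sum was taken after the values of both genes had been seen, and no test was made of it.

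Tlr5, the receptor of bacterial flagellin, was the rarest member and the one with the largest fold change. Tlr5 (gene ID 53791, chromosome 1 from 182954752 to 182976044) received 107, 98 and 148 counts after PBS and 144, 140 and 153 counts after IL17B. PBS replicate 3 lay among the IL17B libraries, and the other 2 PBS libraries lay below them. The log2 fold change was 0.31 (edgeR, SE 0.15, unadjusted p = 0.0665, adjusted p = 0.96). The coefficient of variation of its CPM was 23.2% with PBS and 4.41% with IL17B, where counting alone would give 9.22% and 8.29%. Without PBS replicate 3 the log2 fold change was 0.52 (unadjusted p = 0.00204, adjusted p = 0.508 by edgeR).

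Among the endosomal receptors, Tlr13 binds a sequence of bacterial ribosomal RNA and is found in mice but not in humans. Tlr13 (gene ID 279572, chromosome X from 106143275 to 106160493) was at 566, 555 and 522 CPM with PBS and at 514, 496 and 543 CPM with IL17B. IL17B replicate 3 lay among the PBS libraries, and the other 2 IL17B libraries lay below them. It was the only member with a fold change below 0, at log2 -0.08 (edgeR, SE 0.05, adjusted p = 0.976), with an interval from -12.9% to 2.55%. By the rule set for likeness, the 3 genes whose log2 CPM followed that of Tlr13 most closely over the 6 libraries were Slc35e3, Arf2 and Mast2, with root mean square differences of 0.0102, 0.0121 and 0.0125 among 8677 genes compared. Slc35e3, for one, ranged from 21.1 to 24.1 CPM, with its lowest value in IL17B replicate 2 as for Tlr13.

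Tlr7 and Tlr8 are neighbours on chromosome X, 39050 bases apart, and both bind single-stranded RNA, though mouse Tlr8 responds weakly to the ligands of human TLR8. Tlr8 (gene ID 170744, from 167241123 to 167264329) was at 426, 464 and 451 CPM with PBS and at 486, 468 and 489 CPM with IL17B. Each IL17B library was above the PBS libraries, but the lowest of them exceeded the highest PBS library by 0.862%. With library totals in place of TMM that gap was 0.19%, with DESeq2 size factors it was 1.24%, and in TPM the groups overlapped. The fitted log2 fold change was 0.11 (edgeR, SE 0.05, unadjusted p = 0.0571, adjusted p = 0.945), with an interval from -0.269% to 16.1%.

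Tlr7 (gene ID 170743, from 167303380 to 167330574) was at 174, 217 and 185 CPM with PBS and at 203, 192 and 195 CPM with IL17B. The PBS libraries held both the lowest and the highest value, and the IL17B libraries lay between them. The log2 fold change was 0.03 (edgeR, SE 0.08, adjusted p = 0.993), with an interval from -8.98% to 14.9%. Without PBS replicate 2 it was 0.13 (unadjusted p = 0.0317), and without PBS replicate 1 it was -0.03, so its sign turned without that library. The TPM of Tlr8 was 1.66 to 1.96 times that of Tlr7 in the 6 libraries.

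Tlr9 binds DNA with unmethylated CpG sites, and Tlr3 binds double-stranded RNA and signals through Ticam1 alone. Tlr9 (gene ID 81897, chromosome 9 from 106222598 to 106226876) was at 71.5, 79.4 and 71.8 CPM with PBS and at 79.4, 76.2 and 67.8 CPM with IL17B. The groups overlapped, with the lowest value in IL17B replicate 3, a log2 fold change of 0.00 (edgeR, SE 0.07, adjusted p = 1.00) and an interval from -9.60% to 11.3%. Tlr3 (gene ID 142980, chromosome 8 from 45395665 to 45411075) was at 29.2, 32.3 and 30.6 CPM with PBS and at 35.2, 32.2 and 34.1 CPM with IL17B. Its groups overlapped by 0.106% of the highest PBS value, and with DESeq2 size factors they were separate by 0.266%. The log2 fold change of Tlr3 was 0.14 (edgeR, SE 0.06, unadjusted p = 0.0507, adjusted p = 0.941), with an interval from -0.0344% to 21.5%. An exon of the antisense gene Gm45542 overlaps Tlr3 by 258 bases, and the sources used here do not say whether the reads kept their strand, so reads from these bases cannot be told apart.

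Receptor levels also differed within a treatment. PBS replicate 1 had the lowest CPM of the 6 libraries for 6 of 10 receptors (Tlr2, Tlr3, Tlr4, Tlr6, Tlr7 and Tlr8), while it was lowest for 21.4% of the 8680 genes with a mean of at least 10 CPM. It was also highest for Tlr1 and Tlr13. IL17B replicates 1 and 3 were highest for 3 receptors each. The coefficient of variation was larger among PBS libraries than among IL17B libraries for 8 of 10 receptors, Tlr9 and Tlr13 being the exceptions, and for 54.8% of all genes with a mean of at least 5 CPM.

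**Figure D4:**
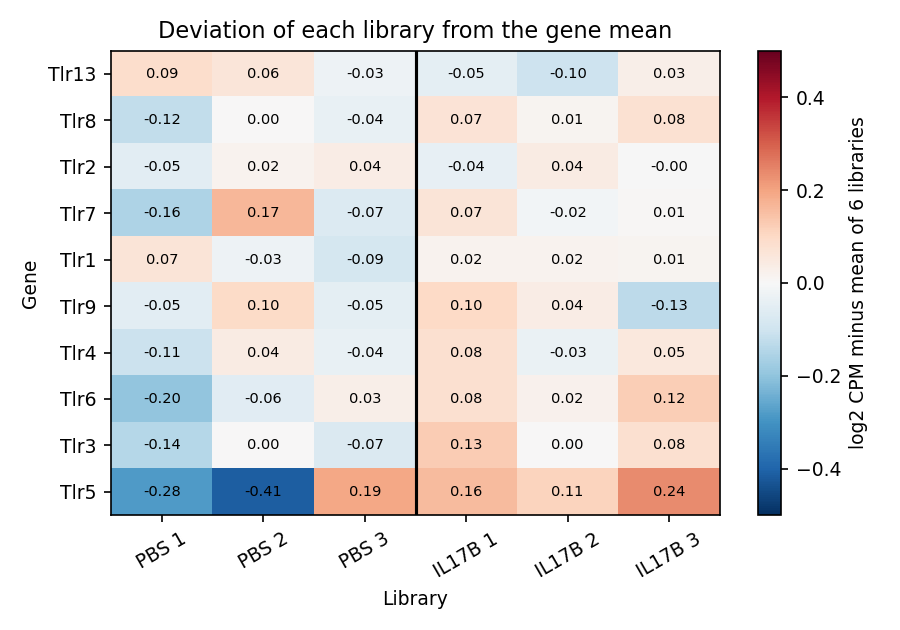
Log2 CPM of each Toll-like receptor gene in each library, as the difference from its mean over 6 libraries. PBS replicate 1 is lowest for 6 of 10 genes, among them Tlr6 and Tlr7, and Tlr5 has the widest range.

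Ratios of 2 receptors within a library do not depend on how libraries are scaled. Of the 45 pairs of receptors, 7 had CPM ratios that did not overlap between treatments, against 9.31% of all pairs of genes with a mean of at least 5 CPM. The pairs share genes and are not independent, and Tlr13 was in 5 of the 7. The ratio of Tlr8 to Tlr13 was 0.752, 0.836 and 0.864 with PBS and 0.946, 0.943 and 0.901 with IL17B. The ratio of Tlr4 to Tlr13 was 0.257, 0.291 and 0.292 with PBS and 0.322, 0.308 and 0.299 with IL17B. In both, all IL17B libraries were above all PBS libraries. Tlr3 to Tlr4 was steadier, at 0.201, 0.200 and 0.201 with PBS and 0.213, 0.211 and 0.210 with IL17B. These pairs were picked for not overlapping, and no test was made of them.

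The receptors were also followed without the IL17B libraries that carried hepatocyte genes. With IL17B replicate 1 alone against the 3 PBS libraries, where the single library is assumed to vary like the others, edgeR called 0 of 10 receptors. The fitted log2 fold changes of the surface receptors were then 0.03 for Tlr1, -0.04 for Tlr2, 0.11 for Tlr4, 0.30 for Tlr5 and 0.15 for Tlr6. Those of the endosomal receptors were 0.20 for Tlr3, 0.08 for Tlr7, 0.12 for Tlr8, 0.10 for Tlr9 and -0.09 for Tlr13. The sign of Tlr2 turned, Tlr9 moved up from 0.00, and the adjusted p in edgeR lay between 0.985 and 0.994 for all 10.

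The other mouse receptors of the family had too few counts for a test. Tlr11, which binds profilin of Toxoplasma, received 5, 2 and 2 counts after PBS and 2, 3 and 0 counts after IL17B. Its partner Tlr12 received 0 counts in each PBS library and 1, 1 and 0 counts after IL17B. A count of 0 allows up to 3 counts in a library, and this floor covers counting error only.

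Genes that work with the receptors were not called either. Of 119 genes in 10 lists, 113 were tested, and edgeR, DESeq2 and limma-voom called 0 of them in either direction. At an unadjusted p under 0.05 there were 12 of 113 by edgeR, beside 5.24% of all genes tested. By edgeR without IL17B replicates 2 and 3 it was 4 of 113, beside 2.74% of the 13298 genes tested in that fit. In CPM 13 of 113 did not overlap between treatments, 6 higher and 7 lower with IL17B, beside 9.92% of all genes tested. The median log2 fold change of the 113 was 0.00, as it was over all genes tested.

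**Figure D5:**
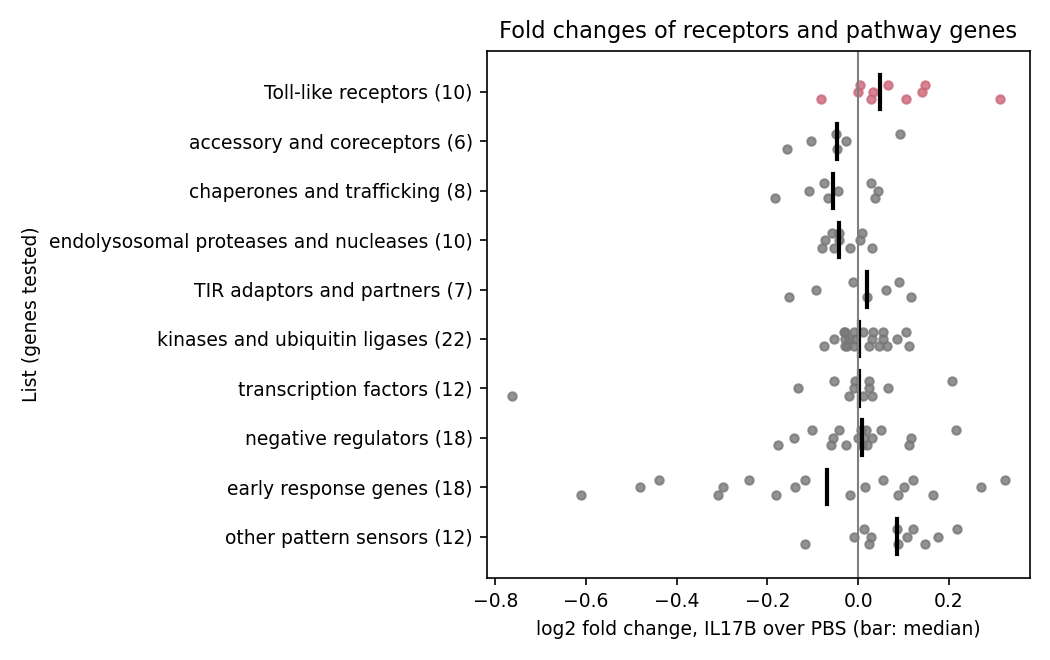
Log2 fold changes, IL17B over PBS, of the 10 Toll-like receptors in red and of the tested genes of each pathway list in grey, with black bars at the medians. The receptor median is 0.05, and the list medians lie between -0.07 for early response genes and 0.09 for other pattern sensors.

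Chaperones and accessory proteins help the receptors to fold, to travel and to bind. Of 8 chaperone and trafficking genes, 0 were called and 1 did not overlap, beside 9.92% of all genes tested. Unc93b1, which carries the endosomal receptors out of the endoplasmic reticulum, averaged 940.4 ± 8.33 CPM with PBS against 969.9 ± 55.8 CPM with IL17B (SD, n = 3 each, also below). Hsp90b1 (gp96), which folds most of the receptors, averaged 544 ± 109 CPM against 478 ± 11.8 CPM, and Sdcbp averaged 651 ± 51.8 CPM against 604 ± 17.8 CPM. Slc15a3, an endolysosomal transporter, was at 465, 458 and 453 CPM with PBS and 429.6, 446 and 430.4 CPM with IL17B, without overlap, a log2 fold change of -0.08 (edgeR, SE 0.04, adjusted p = 0.973). Of 10 proteases and nucleases of endolysosomes, which process receptors or ligands, 0 were called and all 10 overlapped in CPM. Their median log2 fold change was -0.04. In TPM the nuclease gene Dnase2a, named after its values were seen, was lower with IL17B without overlap. Most abundant per length were the cathepsin genes and Lgmn, with Ctsb at 15511 ± 515 CPM against 15612 ± 403 CPM and Ctss at 5185 ± 200.5 CPM against 4979 ± 49.6 CPM. Ctsl averaged 1325 ± 85.8 CPM against 1354 ± 56.4 CPM, and the asparagine endopeptidase gene Lgmn 1158 ± 46.1 CPM against 1124 ± 51.0 CPM. Of 6 accessory genes, 0 were called and all 6 overlapped. Cd180, a relative of the receptors that lacks the TIR domain, averaged 303 ± 32.2 CPM against 272 ± 17.1 CPM, and its partner Ly86 (MD-1) 94.8 ± 12.6 CPM against 91.9 ± 6.40 CPM. Cd36, a scavenger receptor that assists Tlr2, averaged 419 ± 28.1 CPM against 405 ± 45.4 CPM.

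Among 7 adaptor genes 0 were called. Myd88, the adaptor of every member but Tlr3, averaged 85.1 ± 2.37 CPM with PBS against 88.8 ± 1.39 CPM with IL17B. Ticam2 (TRAM), the bridge between Tlr4 and Ticam1, averaged 48.7 ± 2.83 CPM against 51.8 ± 1.93 CPM, and Pik3ap1 (BCAP) 682 ± 22.5 CPM against 691 ± 26.6 CPM. Ticam1, the adaptor of Tlr3 and of endosomal Tlr4, was at 38.9, 38.6 and 36.2 CPM with PBS and 34.2, 34.4 and 33.7 CPM with IL17B. The PBS libraries were all above the IL17B libraries, by a log2 fold change of -0.15 (edgeR, SE 0.05, unadjusted p = 0.0188, adjusted p = 0.909). Of 22 kinases and ubiquitin ligases 0 were called and 2 did not overlap, beside 9.92% of all genes tested. Irak4, the kinase that Myd88 recruits first, was at 59.0, 61.7 and 60.3 CPM with PBS and 63.0, 65.5 and 66.2 CPM with IL17B (edgeR log2 change 0.11 with SE 0.04, adjusted p = 0.941). In TPM the groups of Irak4 overlapped. Peli3, of the Pellino ubiquitin ligases, averaged 7.19 ± 0.419 CPM against 7.62 ± 0.169 CPM, also without overlap in CPM. Its highest PBS library was at 7.44 CPM and its lowest IL17B library at 7.46 CPM, and in TPM the groups overlapped. The log2 fold change of Peli3 was 0.08 (edgeR, SE 0.09, unadjusted p = 0.382, adjusted p = 0.988). The most abundant of this list per length was the kinase gene Ikbke, at 323 ± 5.42 CPM against 325 ± 2.57 CPM. Tab2, which links TRAF6 to the kinase TAK1, averaged 206 ± 4.32 CPM against 213 ± 3.79 CPM. Ube2v1 and Ube2n, which together make lysine-linked ubiquitin chains for TRAF6, averaged 146 ± 5.04 and 83.5 ± 4.02 CPM against 144 ± 2.5 and 86.7 ± 3.41 CPM.

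Transcription factors and brakes of the pathway also gave 0 calls. All 12 transcription factor genes overlapped. At an unadjusted p under 0.05 by edgeR there was 1 of 12, beside 5.24% of all genes tested. It was Irf1, named after its values were seen, at 49.9, 51.0 and 55.4 CPM with PBS and 53.5, 64.1 and 62.6 CPM with IL17B. The log2 fold change of Irf1 was 0.21 (edgeR, SE 0.07, unadjusted p = 0.0185, adjusted p = 0.909). Irf5, which acts with Myd88, averaged 317 ± 11.7 CPM with PBS against 319 ± 9.64 CPM with IL17B, and Irf8 196 ± 3.89 CPM against 195 ± 7.60 CPM. The NF-kB subunit gene Rela averaged 147 ± 3.71 CPM against 150.1 ± 3.06 CPM, and Fos, a part of AP-1, 285 ± 44.1 CPM against 289 ± 15.8 CPM. Irf7, the interferon-inducible factor downstream of Tlr7 and Tlr9, is named after its values were seen, because its PBS libraries spread widely, at 106, 185 and 42.5 CPM, with the IL17B libraries between them at 61.1, 64.3 and 70.9 CPM (edgeR log2 change -0.76 with SE 0.38, adjusted p = 0.96). Of 18 negative regulators, 2 did not overlap, in opposite directions, beside 9.92% of all genes tested in either direction. Cyld, a deubiquitinase, was at 64.3, 65.2 and 69.9 CPM with PBS and 72.2, 70.2 and 73.8 CPM with IL17B (edgeR log2 change 0.12 with SE 0.05, adjusted p = 0.941). In TPM the groups of Cyld overlapped. Tnip1, a partner of Tnfaip3, was at 177, 169 and 173 CPM with PBS and 166, 161 and 158 CPM with IL17B (edgeR log2 change -0.10 with SE 0.04, adjusted p = 0.941). The 4 genes of the list with the highest TPM overlapped between treatments. They were Inpp5d (SHIP-1) at 448 ± 14.3 CPM against 453 ± 7.09 CPM, Nrros at 304 ± 18.2 CPM against 298 ± 16.1 CPM, Zfp36, which destabilises cytokine mRNA, at 297 ± 24.2 CPM against 297 ± 8.01 CPM, and Atf3 at 232 ± 12 CPM against 211 ± 14.8 CPM.

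Early response genes, which active receptors induce, had 0 calls among the 18 of 22 that were tested. At an unadjusted p under 0.05 by edgeR there were 5 of 18, beside 5.24% of all genes tested. In this list 5 did not overlap, beside 9.92% of all genes tested, and 4 of the 5 were lower with IL17B, beside 4.77%. Acod1, whose enzyme makes itaconate, was at 176, 174 and 164 CPM with PBS and 129.6, 128 and 160.2 CPM with IL17B. Its IL17B replicate 3 was close to the PBS libraries, and the log2 fold change was -0.30 (edgeR, SE 0.08, unadjusted p = 0.00439, adjusted p = 0.862). The adjusted p of Acod1 was 0.207 by DESeq2. Without IL17B replicate 3 its log2 fold change was -0.41 (edgeR, adjusted p = 0.345). The acute-phase gene Saa3 received 78, 98 and 91 counts after PBS and 74, 64 and 58 after IL17B, and the neutrophil chemokine gene Cxcl2 was at 6.12, 5.63 and 6.56 CPM and 8.09, 6.89 and 7.95 CPM. Their adjusted p was 0.909 each by edgeR. Ccl3, a chemokine gene, was at 39.9, 34.9 and 32.4 CPM after PBS and 32.3, 30.6 and 31.6 CPM after IL17B, separate by little. Il1a, the last of the 5 without overlap and named after its values were seen, was under 1 CPM in each library. Tnf averaged 32.2 ± 3.13 CPM against 29.2 ± 2.06 CPM, and Ccl4 16.4 ± 2.29 CPM against 13.9 ± 0.773 CPM, and both overlapped.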

How the data were processed

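Bulk RNAseq of BMDM was done on 3 PBS and 3 IL17B samples. The authors filtered the reads with SOAPnuke, mapped them to GRCm38 (HISAT2 2.0.4) and to coding genes (Bowtie2 2.2.5), and ran RSEM 1.2.12 to estimate a count for every gene. The deposited table holds, per library, these expected counts, and the TPM and FPKM values the authors made from them. FPKM values and the authors' means as deposited were not used.

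After rounding, 13866 genes whose counts summed to 15 or more entered the quasi-likelihood test of edgeR 4.0.16 (R 4.3.3) with TMM scaling and no block. P values were adjusted by Benjamini-Hochberg over all of these genes, and a gene was called at 0.05 or less. Standard errors come from the quasi-likelihood statistic, and intervals are 95%. Alternatives used DESeq2 1.42.0, limma 3.58.1 (voom with quality weights, or log2 of TPM plus 0.1 or 1), other scalings and filters, each library left out, no IL17B replicates 2 and 3, and a replicate block. Fits were tested on simulated counts. Every pair of replicates differed by more than sampling noise (mean chi-square per gene 4.93 to 10.1).

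Genes named are the 10 receptors and, of each pathway list, up to 4 with the highest mean TPM and up to 3 with the smallest p among those whose treatments did not overlap in CPM. The likeness rule took, for the member of highest TPM, the 3 genes of at least 10 mean CPM with the smallest root mean square difference in centred log2 CPM. Members and lists were chosen with earlier results of these data known. Gene coordinates are from RefSeq GRCm38.p6, matched by gene ID for all 10. Sequences are from the GENCODE M21 transcripts of GRCm38. Of the cell type markers, S100a9, Ly6g, Retnlg and Ncr1 were not analysed here, and 1 marker list is not reported here.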

Additional observations from a re-analysis of the deposited data

How the results depend on the processing

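No receptor or pathway gene was called under any of the 16 alternatives. Over all genes, where edgeR called 0, DESeq2 called 6 and limma on log2 of TPM plus 0.1 called 1 (Hmga1b). Leaving out 1 library gave 0 to 86 calls, and 86 came without IL17B replicate 1. With the replicate block there were 76 calls, none of them a receptor. Deviations of same-numbered libraries correlated at -0.14, 0.01 and -0.13, and those of the other pairs at -0.10 to 0.23. With 3 libraries per treatment these values cannot show whether the numbers pair the samples.

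Tlr3, Tlr4, Tlr5, Tlr6, Tlr8 and Tlr13 kept their direction under all 16 alternatives. Tlr2 turned below 0 with limma-voom (log2 -0.0035), filterByExpr (-0.00026), no filter beyond 1 count (-0.00019) and without IL17B replicates 2 and 3 (-0.043). With 1 library left out, log2 fold changes ranged from -0.0053 to 0.073 for Tlr1, from -0.024 to 0.023 for Tlr2, from -0.032 to 0.13 for Tlr7 and from -0.043 to 0.069 for Tlr9. For Tlr5 that range was 0.19 to 0.52. The smallest adjusted p of a receptor under any alternative was 0.508, for Tlr5 without PBS replicate 3. Unadjusted p values under 0.05 came up in 4 alternatives for Tlr3, 3 for Tlr8, 2 for Tlr5 and 1 each for Tlr6 and Tlr7. Among all genes tested, those fits had such values for 312 of 13866 (DESeq2) to 924 of 13646 (edgeR without PBS replicate 3). The alternatives reuse the same 6 libraries, so the tally is not repeated evidence. Tlr5 had the fewest counts of the receptors, at 98 to 153 per library, and the part of depth in its spread was not tested.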

Other observations

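Sensors of microbes outside the family were expressed in the same libraries. Of 12 such genes, 10 had a log2 fold change above 0, beside 50.1% of all genes tested. Their median was 0.09, against 0.00 over all genes tested. By edgeR, DESeq2 or limma-voom 0 were called. An unadjusted p under 0.05 by edgeR was found for 1, beside 5.24% of all genes tested. In CPM 2 of 12 did not overlap between treatments, beside 9.92% of all genes tested. Clec7a (Dectin-1), the receptor of fungal beta-glucan, was at 414, 369 and 413 CPM with PBS and 435, 422 and 432 CPM with IL17B, without overlap (edgeR log2 change 0.11 with SE 0.05, adjusted p = 0.96). Nod1, a cytosolic sensor of bacterial peptidoglycan, was at 15.1, 16.8 and 16.4 CPM with PBS and 17.1, 19.6 and 17.9 CPM with IL17B (edgeR log2 change 0.18 with SE 0.08, adjusted p = 0.941). The groups did not overlap for Nod1 either. Mavs, the adaptor of the RNA helicase sensors, averaged 73.0 ± 4.59 CPM against 72.5 ± 1.44 CPM (SD, n = 3 each). Nlrp3, the inflammasome sensor, averaged 88.5 ± 2.18 CPM against 89.2 ± 2.76 CPM, and Tmem173 (STING), the adaptor of cytosolic DNA sensing, 43.3 ± 3.51 CPM against 44.1 ± 3.28 CPM.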
